A study of Homo sapiens with 6 samples.

Results

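The genes described here are the metalloproteases of the MMP, ADAM and ADAMTS families, the ADAMTS-like proteins (ADAMTSL), the tissue inhibitors of metalloproteases (TIMP) and alpha-2-macroglobulin (A2M). They were chosen by symbol (a family name followed by a number, plus A2M), with 6 pseudogenes and 1 antisense gene left out. The symbol rule used no measured value, but it was set with earlier results of these data known. Of 14884 genes tested, 48 belonged: 19 MMP, 19 ADAM, 5 ADAMTSL and 4 TIMP genes and A2M. No numbered ADAMTS gene was among the named probe sets, and MMP2, MMP3, MMP7, MMP9 and ADAM7 were not analysed here either.

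The cells were U-2 OS, a human osteosarcoma line, infected with a retrovirus and kept for 3 days under puromycin (5 µg/ml). The S22A-progerin group (3 arrays) expressed progerin in which serine 22 is replaced by alanine, and the wt-progerin group (3 arrays) expressed progerin without that change, both taken 4 days after infection. Progerin is the truncated, permanently farnesylated lamin A of Hutchinson-Gilford progeria, and serine 22 is a site that mitotic kinases phosphorylate as the lamina disassembles. Both groups carried progerin from a viral vector on top of the line's own lamins, and with no progerin-free array at hand the values cannot tell which group departs from the parental line.

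MMPs are zinc-dependent enzymes, secreted or anchored in the plasma membrane, that cut collagens, proteoglycans and other matrix proteins. They are made as inactive precursors, and most are induced by cytokines and growth factors rather than made constantly. ADAMs are membrane-spanning relatives that release the outer parts of growth factor precursors, receptors and adhesion proteins, although several ADAMs lack a working catalytic site and act in adhesion. TIMPs block the active site of MMPs and of some ADAMs, whereas A2M is a large plasma protein that traps proteases of all classes. In bone, MMP13 and MMP14 take part in the turnover of collagen matrix.

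The arrays were alike in overall signal, with medians of 6.05 to 6.09 in S22A-progerin and 6.04 in wt-progerin on the log2 scale. Pairwise correlations across genes (not independent replicates) were 0.994 to 0.996 within S22A-progerin, 0.996 within wt-progerin and 0.983 to 0.985 between the groups. LMNA, the gene for lamin A and progerin, averaged 8.29 ± 0.024 in S22A-progerin and 8.14 ± 0.036 in wt-progerin (SD, n = 3 each) and did not pass (limma adjusted p = 0.0796). Its groups did not overlap, as in 42.1% of all genes. This probe set does not read the serine 22 change. It also does not separate viral progerin from the line's own LMNA, so it cannot show that progerin levels were equal. Of 9 osteoblast lineage markers 4 were measured: RUNX2 averaged 8.03 in S22A-progerin and 8.77 in wt-progerin, SPP1 8.36 and 7.18, SP7 6.24 and 6.25, and IBSP 3.88 and 3.86. Vimentin (VIM), a mesenchymal filament, averaged 10.83 in S22A-progerin and 10.89 in wt-progerin and did not pass, while the other measured mesenchymal markers did: THY1 fell (-0.32) and S100A4 rose (0.38). Of 5 measured epithelial markers KRT18 rose (0.51), and EPCAM, KRT8, KRT19 and CLDN4 did not pass. All 3 measured endothelial markers lay between 5.23 and 6.05 and did not pass. Among 5 measured leukocyte markers 1, CD68, rose (difference 1.48), while CD14, CSF1R, LYZ and TYROBP did not pass. The array means over these 5 markers, CD68 included, ran from 6.70 to 6.85 in S22A-progerin and from 6.38 to 6.42 in wt-progerin. Apart from CD68, the differences were 0.18 for CD14, -0.11 for CSF1R, 0.26 for LYZ and 0.17 for TYROBP. The part of other cell types in the results was not tested.

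S22A-progerin cells had higher levels of interstitial collagenase (MMP1), neutrophil collagenase (MMP8), macrophage metalloelastase (MMP12) and ADAM28. They had lower levels of A2M, the membrane-anchored MMP24, the meltrin ADAM12, ADAMTSL3 and collagenase 3 (MMP13). The wt-progerin means of MMP1 (4.91), MMP8 (5.42), MMP12 (5.46) and ADAM28 (5.51) lay below the wt-progerin array medians of 6.04. Such low values may be absence. Among the inhibitors, A2M fell to a mean of 7.43 in S22A-progerin, against 9.01 in wt-progerin, and TIMP2 to 9.92, against 10.36, while TIMP1, TIMP3 and TIMP4 did not pass. In all, 15 of the 48 genes (31.2%) passed limma's test at an adjusted p under 0.05, of which 7 were higher and 8 lower in S22A-progerin. Over all 14884 genes 25.4% passed, 10.8% as higher and 14.6% as lower, so the share among these genes lies near that of genes at large. With a fold of at least 1.5 as well, 8 of the 48 (16.7%) passed, against 5.8% of all genes. As the set was chosen with earlier results of these data known, no excess can be read from this share. The 2 groups of arrays did not overlap in 22 of the 48 genes (45.8%), against 42.1% of all genes. The median difference was 0.0086 over the 48 genes and -0.0037 over all genes. By family the median was 0.01 for the MMPs, 0.07 for the ADAMs, -0.11 for ADAMTSL and 0.04 for the TIMPs. Each difference given is that of S22A-progerin over wt-progerin in log2 units, and the intervals cover 95%. In such bulk samples fewer cells of a type and less RNA per cell cannot be told apart.

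**Figure D1:**
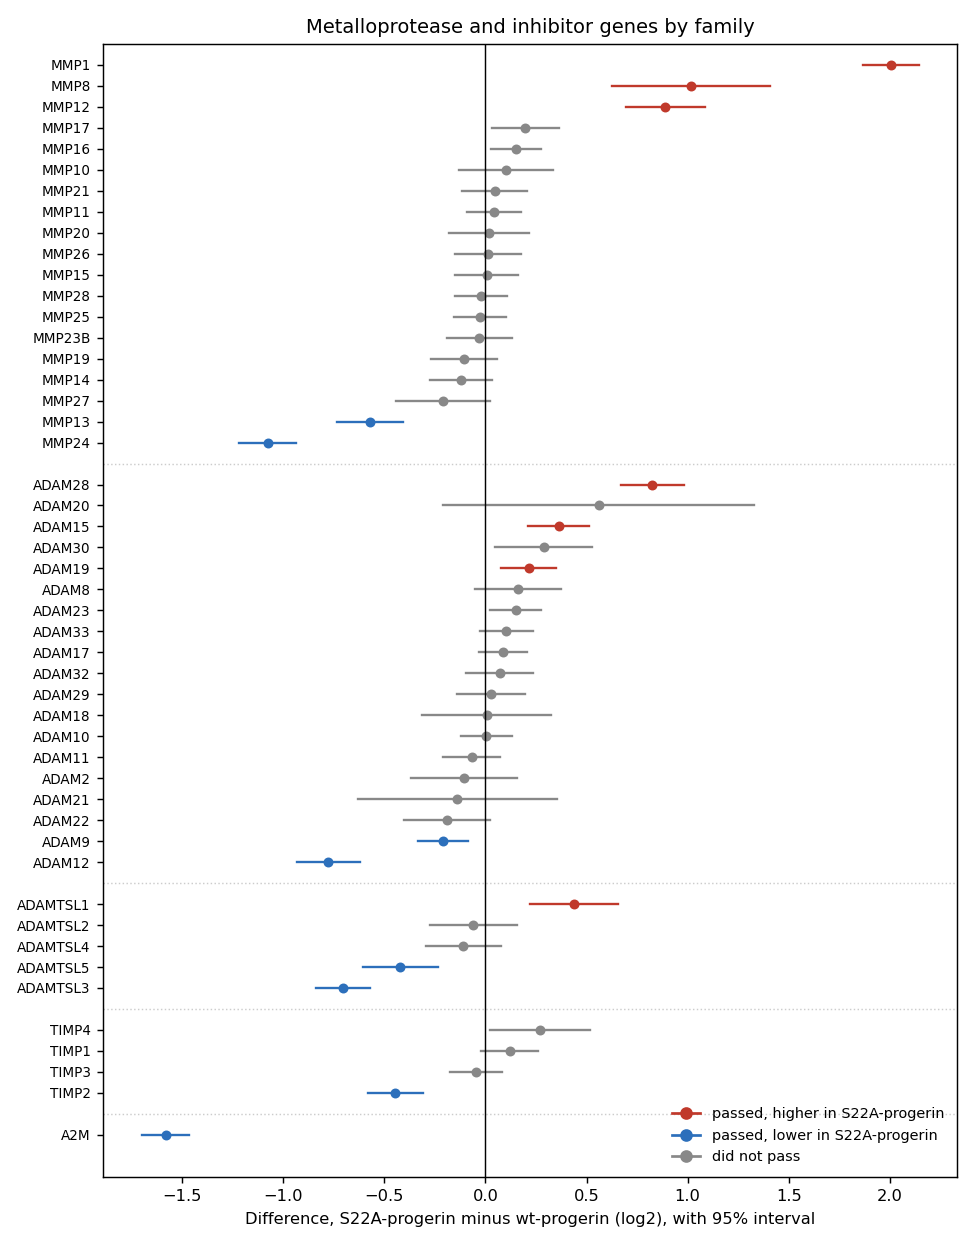
Difference between S22A-progerin and wt-progerin (log2, horizontal axis) for each of the 48 genes, grouped by family, with points for the limma estimates and lines for their 95% intervals. MMP1 stands apart on the right at 2.0 and A2M on the left at -1.58, and 33 genes drawn in grey did not pass.

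**Figure D2:**
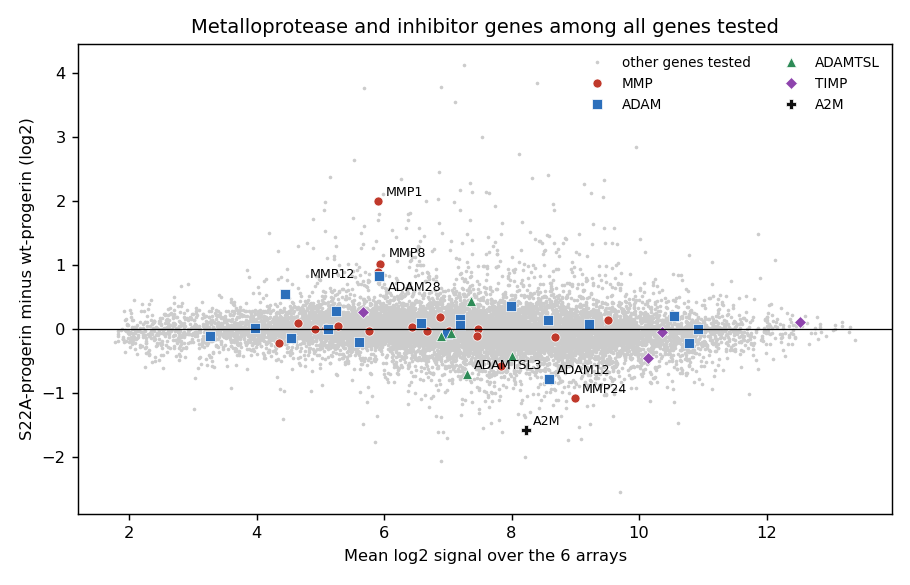
Difference (log2, vertical axis) against mean log2 signal over the 6 arrays (horizontal axis) for all 14884 genes tested, with the MMP, ADAM, ADAMTSL, TIMP and A2M genes marked by family. The 8 labelled genes passed with a fold of at least 1.5, and the other genes of these families lie within the grey band of genes at large.

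The collagenases, the MMPs that can cleave the triple helix of fibrillar collagens, moved in opposite directions. MMP1 was read at 6.91, 6.98 and 6.85 in the 3 S22A-progerin arrays, against 4.95, 4.92 and 4.86 in the wt-progerin arrays. The groups lay far apart, with every S22A-progerin array well above every wt-progerin array. The difference was 2.0 (SE 0.059, interval 1.86 to 2.14), a 4.01-fold rise (limma adjusted p = 3.86e-06). MMP8, known as the collagenase stored by neutrophils, was read at 6.66, 6.29 and 6.38 in S22A-progerin, against 5.78, 5.25 and 5.24 in wt-progerin. Here replicate 1 was the highest array of each group, and the groups still did not overlap. Its difference was 1.02 (SE 0.166, interval 0.63 to 1.41), a 2.02-fold rise (limma adjusted p = 0.00448). MMP13, the collagenase of cartilage and bone, went the other way, at 7.64, 7.56 and 7.42 in S22A-progerin, against 8.10, 8.11 and 8.13 in wt-progerin. The wt-progerin arrays were close together and all above the S22A-progerin arrays. MMP13 thus fell by 0.57 on the log2 scale (SE 0.068, 1.48-fold, limma adjusted p = 0.00117).

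Among the other MMPs not counted here as membrane-anchored, MMP12 was the only gene that passed. It encodes the elastin-degrading enzyme best known from macrophages, and was read at 6.51, 6.21 and 6.33 in S22A-progerin, against 5.50, 5.41 and 5.47 in wt-progerin. No array of the S22A-progerin group came near the wt-progerin group, and the difference of 0.89 (SE 0.083, interval 0.69 to 1.08) was a 1.85-fold rise (limma adjusted p = 3.98e-04). The stromelysins MMP10 (0.10) and MMP11 (0.04) and the matrilysin MMP26 (0.01) did not pass. Nor did MMP19 (-0.11), MMP20 (0.02), MMP21 (0.05), MMP23B (-0.03), MMP27 (-0.21) and MMP28 (-0.02). MMP23B has a near-identical pseudogene copy, MMP23A, whose signal its probes may share. For MMP10 the interval of the difference ran from -0.13 to 0.33. MMP27 passed with S22A-progerin replicate 3 left out (-0.31, limma adjusted p = 0.0402).

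Most of the MMPs that stay anchored in the plasma membrane showed small differences, and MMP24 was the exception. MMP24, a transmembrane MMP studied mainly in the nervous system, was read at 8.53, 8.41 and 8.42 in S22A-progerin, against 9.55, 9.47 and 9.57 in wt-progerin. The groups were separated by several times their own spread, with a difference of -1.08 (SE 0.059, interval -1.22 to -0.94), a 2.11-fold fall (limma adjusted p = 5.06e-05). A dimmer probe set of MMP24 averaged 7.28 in S22A-progerin and 7.44 in wt-progerin, and its difference of -0.16 did not pass when every probe set was tested (limma adjusted p = 0.135). With both probe sets averaged the difference was -0.62 (limma adjusted p = 3.25e-04), so the size of the fall depends on the probe set. MMP14, the membrane collagenase that activates pro-MMP2 together with TIMP2, averaged 8.62 ± 0.091 in S22A-progerin and 8.74 ± 0.049 in wt-progerin (SD, n = 3 each), a difference of -0.12 (interval -0.28 to 0.03). MMP16 (0.15, adjusted p = 0.0797) and MMP17 (0.20, adjusted p = 0.084) had groups that did not overlap but did not pass by limma, and MMP15 (0.01) and MMP25 (-0.03) did not pass either. MMP16 passed with the arrays quantile normalized again (0.19, limma adjusted p = 0.0282).

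The MMP genes that moved include neighbours in the genome. In the RefSeq gene order, 9 MMP genes follow each other on chromosome 11 with no other protein-coding gene between them: MMP7, MMP20, MMP27, MMP8, MMP10, MMP1, MMP3, MMP12 and MMP13. Of the 7 measured, MMP8, MMP1 and MMP12 rose, MMP13 at the end of the row fell, and MMP20, MMP27 and MMP10 did not pass. Over all genes 25.4% passed. MMP10, which lies between MMP8 and MMP1, averaged 4.70 ± 0.168 in S22A-progerin and 4.60 ± 0.106 in wt-progerin (SD, n = 3 each). MMP10, MMP20 and MMP27 averaged below the array medians in both groups. Such low values may be absence, in which case no response could be read. A second row of neighbours, ADAM9, ADAM32, ADAM18 and ADAM2, held 1 gene that passed, ADAM9.

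**Figure D3:**
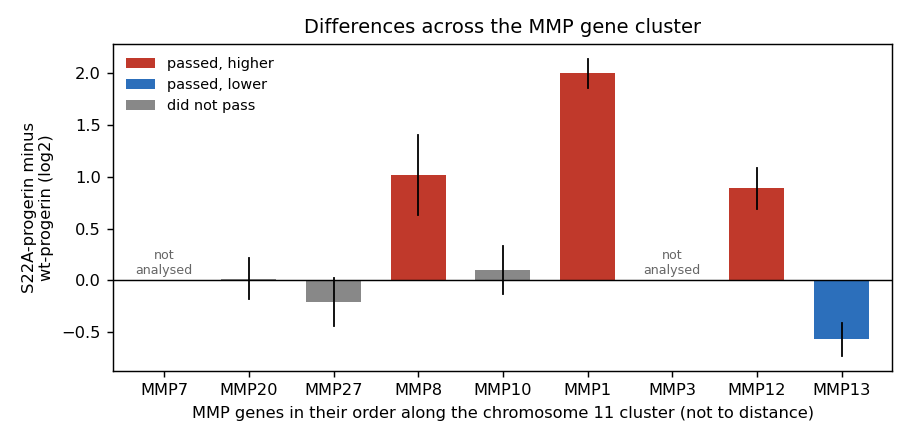
Difference between S22A-progerin and wt-progerin (log2, vertical axis; bars from 0, with lines for 95% intervals) of the MMP genes in their order along the chromosome 11 cluster. MMP8, MMP1 and MMP12 stand above 0, MMP13 stands below it at -0.57, and MMP10 between MMP8 and MMP1 is near 0.

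RefSeq promoter sequences (GRCh38.p14) were at hand for 31 of the 48 genes, and the 250 bases before the gene start are shown for the 4 measured genes of the chromosome 11 row that had one, MMP20, MMP27, MMP8 and MMP10, and for MMP24, the MMP with the largest fall. Capitals mark matches to the AP-1 element TGANTCA, the TATA box TATAAA and the GC box GGGCGG, each sought on both strands. The windows are chr11:102625333-102625582 (minus strand) for MMP20, chr11:102705770-102706019 (minus strand) for MMP27, chr11:102724955-102725204 (minus strand) for MMP8, chr11:102780629-102780878 (minus strand) for MMP10 and chr20:35226440-35226689 (plus strand) for MMP24, written 5′ to 3′ on the gene's strand.
MMP20: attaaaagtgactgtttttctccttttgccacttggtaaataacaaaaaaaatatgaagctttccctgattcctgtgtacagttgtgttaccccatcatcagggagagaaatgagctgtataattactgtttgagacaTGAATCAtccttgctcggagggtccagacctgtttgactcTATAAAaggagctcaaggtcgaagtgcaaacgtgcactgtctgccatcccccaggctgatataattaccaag
MMP27: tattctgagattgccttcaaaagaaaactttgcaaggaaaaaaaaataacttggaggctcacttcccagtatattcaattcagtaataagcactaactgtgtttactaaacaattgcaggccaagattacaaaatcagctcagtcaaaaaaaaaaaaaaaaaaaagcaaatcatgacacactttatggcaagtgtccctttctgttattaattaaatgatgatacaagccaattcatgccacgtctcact
MMP8: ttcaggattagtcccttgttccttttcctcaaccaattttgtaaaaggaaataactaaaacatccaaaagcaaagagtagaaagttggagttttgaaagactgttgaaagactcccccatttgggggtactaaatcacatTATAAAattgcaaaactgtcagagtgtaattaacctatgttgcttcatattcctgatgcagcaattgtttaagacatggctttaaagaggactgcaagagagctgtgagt
MMP10: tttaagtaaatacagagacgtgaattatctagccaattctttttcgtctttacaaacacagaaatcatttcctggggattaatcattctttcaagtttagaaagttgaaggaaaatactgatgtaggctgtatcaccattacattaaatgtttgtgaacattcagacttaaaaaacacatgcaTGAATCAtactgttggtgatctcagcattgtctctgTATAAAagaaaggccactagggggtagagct
MMP24: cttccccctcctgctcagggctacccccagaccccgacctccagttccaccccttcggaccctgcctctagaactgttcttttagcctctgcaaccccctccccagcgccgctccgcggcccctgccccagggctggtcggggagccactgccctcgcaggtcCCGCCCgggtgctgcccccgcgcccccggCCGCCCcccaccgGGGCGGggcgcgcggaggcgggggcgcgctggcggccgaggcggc
AP-1, a dimer of FOS and JUN proteins, is the best known inducer of collagenase and stromelysin genes. The letters TGANTCA were found in the windows of MMP10 and MMP20, and not in those of MMP8 and MMP27. The windows of MMP1, MMP12 and MMP13, which are 3 of the 4 genes of the row that passed, were not analysed here, so no relation between these letters and the response of the row can be read. They occurred in 2 of the 31 windows of these families and in 6.6% of 27305 RefSeq windows of the same length. TATAAA was found in MMP20, MMP8 and MMP10, and in 6 of the 31 windows against 11.1% of all. The MMP24 window held 3 matches to GGGCGG and no TATAAA, and the MMP27 window held none of the 3 marked elements. Matches to GGGCGG were found in 19 of the 31 windows and in 42.3% of all. The element AGGAAG, bound by ETS factors of the PEA3 kind, was in 5 of the 31 windows and in 28.7% of all. The motifs do not overlap each other in the sequences shown. A match is a stretch of letters and not a measured binding site.

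Of the 19 ADAM genes, 3 rose, 2 fell and 14 did not pass. The share that passed was 26.3%, near the 25.4% of all genes. ADAM28, an ADAM first described in lymphocytes, was read at 6.25, 6.32 and 6.44 in S22A-progerin, against 5.50, 5.56 and 5.47 in wt-progerin. All S22A-progerin arrays lay above all wt-progerin arrays, and the difference was 0.83 (SE 0.065, 1.77-fold, limma adjusted p = 2.06e-04). ADAM15, which carries an integrin-binding motif, was read at 8.25, 8.12 and 8.17 in S22A-progerin, against 7.73, 7.86 and 7.85 in wt-progerin. The groups were separate but closer than for ADAM28, with a difference of 0.36 (SE 0.063, 1.29-fold, limma adjusted p = 0.00606). ADAM12, a meltrin that is raised in many tumours and in growing mesenchyme, was read at 8.27, 8.10 and 8.24 in S22A-progerin, against 8.93, 9.04 and 8.97 in wt-progerin. It was the ADAM gene with the largest fall, with a difference of -0.78 (SE 0.066, 1.71-fold, limma adjusted p = 2.78e-04).

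The other meltrins, ADAM9 and ADAM19, moved by small amounts and in opposite directions. ADAM9 was read at 10.69, 10.68 and 10.67 in S22A-progerin, against 10.87, 10.86 and 10.94 in wt-progerin, and fell by 0.21 on the log2 scale (limma adjusted p = 0.0241). ADAM19, which releases neuregulins, was read at 10.71, 10.58 and 10.69 in S22A-progerin, against 10.43, 10.49 and 10.43 in wt-progerin, a rise of 0.21 (limma adjusted p = 0.033). Neither set of groups overlapped, but both calls rest on the full set of arrays. ADAM9 no longer passed when any array but S22A-progerin replicate 3 was left out (limma adjusted p from 0.0541 to 0.0965 in those 5 fits), and ADAM19 when any but S22A-progerin replicate 2 was left out (0.0671 to 0.109). ADAM19 also did not pass with the arrays centred on their medians (0.18, limma adjusted p = 0.0802).

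The chief sheddases of most cells showed little difference. ADAM10, which cleaves Notch receptors and cadherins, averaged 10.93 ± 0.031 in S22A-progerin and 10.93 ± 0.050 in wt-progerin (SD, n = 3 each), and the interval of its difference ran from -0.12 to 0.13. ADAM17, which releases TNF and several EGF receptor ligands, averaged 9.27 ± 0.035 in S22A-progerin and 9.18 ± 0.018 in wt-progerin (SD, n = 3 each). Its groups did not overlap, yet the difference of 0.09 (interval -0.03 to 0.20) did not pass (limma adjusted p = 0.266). Of the 12 measured ADAMs known as active proteases 5 passed, and of the 7 known to lack protease activity (ADAM2, ADAM11, ADAM18, ADAM22, ADAM23, ADAM29 and ADAM32) 0 passed by limma and 1 had an unadjusted p under 0.05. The share among the active kind was 41.7%, against 25.4% of all genes, and the difference between these 2 kinds was not tested. Of the inactive kind, ADAM2, ADAM18, ADAM22 and ADAM29 averaged below the array medians in both groups. So did ADAM20, ADAM21 and ADAM30 of the active kind. Such low values may be absence, in which case no response could be read. The other active ADAMs were ADAM8 (0.16), ADAM20 (0.56), ADAM21 (-0.14), ADAM30 (0.29) and ADAM33 (0.10), and none of these passed. ADAM30 did so with S22A-progerin replicate 1 left out (0.37, limma adjusted p = 0.0413). ADAM20, a testis gene, owed its difference to S22A-progerin replicate 3, at 5.58, beside 4.24 and 4.38 in the other S22A-progerin arrays and 4.24, 4.23 and 4.05 in wt-progerin. Without that array its difference was 0.14. Among the inactive ADAMs ADAM23 came closest to passing (0.15, limma adjusted p = 0.0848), and it passed with the arrays quantile normalized again (0.18, limma adjusted p = 0.0414).

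**Figure D4:**
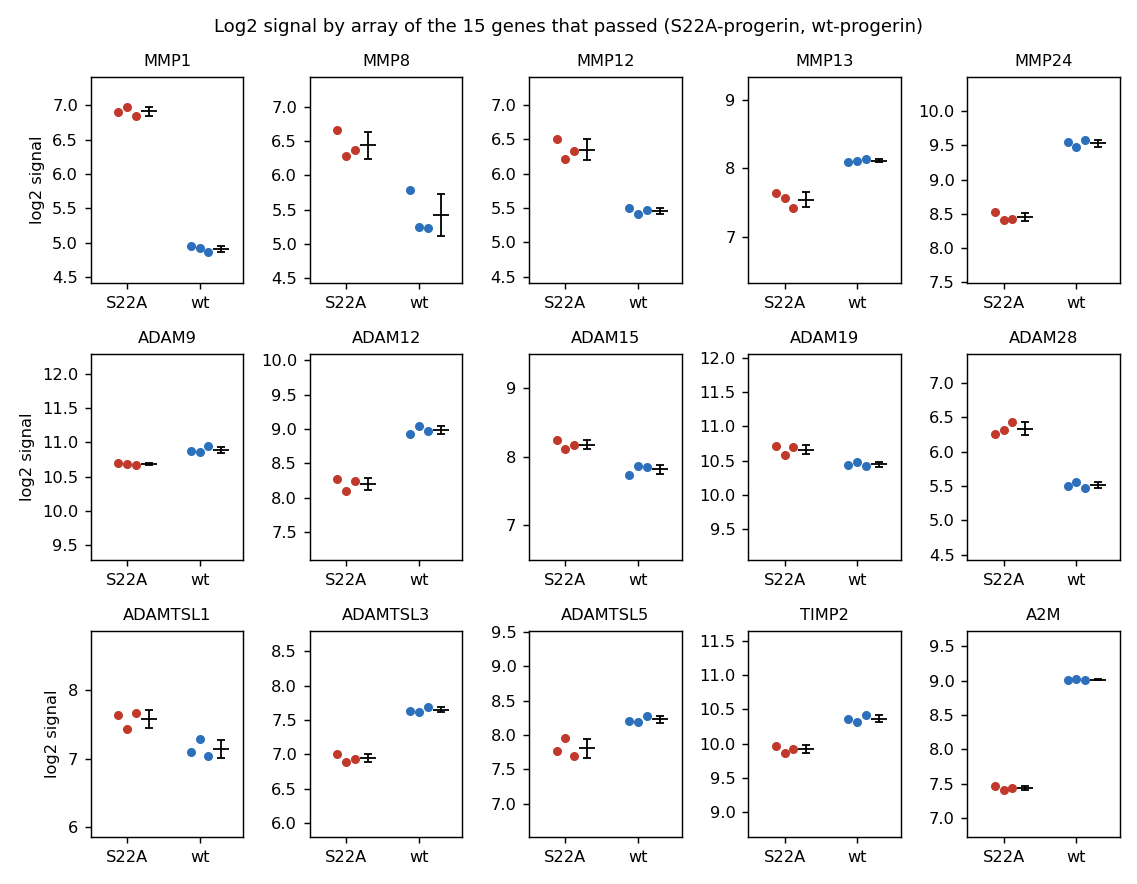
Log2 signal by array of the 15 genes that passed, with S22A-progerin (red) left of wt-progerin (blue). Points are arrays, the black dash and bar beside them are the group mean and SD, and every panel spans 3 log2 units. In each panel the groups do not overlap, and the difference between group means runs in size from 2.0 for MMP1 to about 0.21 for ADAM9 and ADAM19.

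ADAMTSL proteins share the ancillary domains of the ADAMTS proteases but have no protease domain, and some bind fibrillin microfibrils in the matrix. Of the 5 genes 1 rose, 2 fell and 2 did not pass. The share that passed was 60.0% over these few genes, against 25.4% of all genes. ADAMTSL3 was read at 7.01, 6.89 and 6.94 in S22A-progerin, against 7.64, 7.62 and 7.69 in wt-progerin. The groups lay clearly apart, with a difference of -0.70 (SE 0.057, 1.63-fold, limma adjusted p = 2.26e-04). ADAMTSL5 was read at 7.77, 7.95 and 7.69 in S22A-progerin, against 8.21, 8.18 and 8.28 in wt-progerin, a difference of -0.42 (limma adjusted p = 0.00803). ADAMTSL1 went up, with 7.64, 7.43 and 7.67 in S22A-progerin, against 7.10, 7.28 and 7.04 in wt-progerin. Replicate 2 was the array nearest to the other group on both sides, and the difference was 0.44 (SE 0.093, limma adjusted p = 0.0132). The ADAMTSL1 call was lost without wt-progerin replicate 3 (0.39, limma adjusted p = 0.0503). ADAMTSL2 (-0.06) and ADAMTSL4 (-0.11), both linked to inherited disorders of connective tissue, did not pass.

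A2M had the largest fall of the 48 genes and the smallest spread between arrays among the genes that passed in the wt-progerin group. It was read at 7.46, 7.40 and 7.44 in S22A-progerin, against 9.01, 9.02 and 9.01 in wt-progerin. The difference was -1.58 (SE 0.049, interval -1.70 to -1.47), a 2.99-fold fall (limma adjusted p = 4.17e-06). TIMP2, which both inhibits MMPs and takes part with MMP14 in activating pro-MMP2, was read at 9.97, 9.86 and 9.93 in S22A-progerin, against 10.36, 10.32 and 10.42 in wt-progerin. Its groups were separate, and the difference was -0.44 (SE 0.057, interval -0.58 to -0.31), a 1.36-fold fall (limma adjusted p = 0.00166).

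The other TIMPs did not pass. TIMP1, a broad MMP inhibitor that many cells secrete in quantity, was read at 12.56, 12.65 and 12.54 in S22A-progerin, against 12.45, 12.54 and 12.41 in wt-progerin. Its groups stood just apart, and the difference was 0.12 (interval -0.02 to 0.26, limma adjusted p = 0.201). TIMP3, which stays bound to the matrix and also inhibits ADAM17, was read at 10.34, 10.32 and 10.36 in S22A-progerin, against 10.42, 10.42 and 10.32 in wt-progerin. These values overlapped, with a difference of -0.04 (interval -0.17 to 0.08). A dimmer TIMP3 probe set averaged 5.56 in S22A-progerin and 6.03 in wt-progerin and passed when every probe set was tested (-0.47, limma adjusted p = 0.00239), so the probe sets of TIMP3 disagree. TIMP4 was read at 5.78, 5.98 and 5.66 in S22A-progerin, against 5.70, 5.45 and 5.46 in wt-progerin. The groups overlapped through wt-progerin replicate 1, and the difference of 0.27 (interval 0.02 to 0.52) did not pass (limma adjusted p = 0.108).

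**Figure D5:**
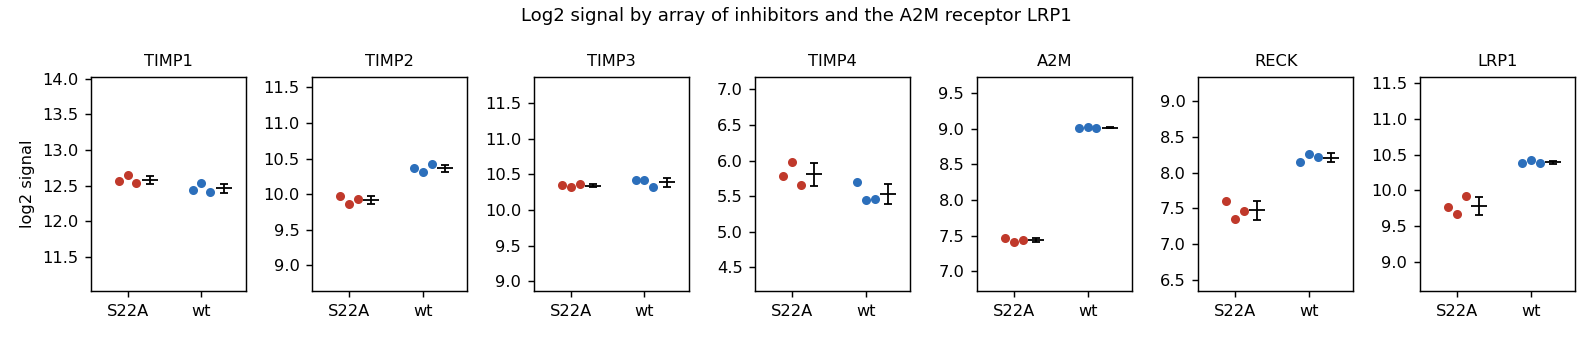
Log2 signal by array of the TIMPs, A2M, the membrane-anchored inhibitor RECK and the A2M receptor LRP1, with S22A-progerin (red) left of wt-progerin (blue). Points are arrays, the black dash and bar are the group mean and SD, and every panel spans 3 log2 units. A2M, RECK, LRP1 and TIMP2 are lower in all 3 S22A-progerin arrays, and TIMP1 and TIMP3 are nearly level.

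Of 33 listed genes that regulate or activate metalloproteases 24 were measured, and 4 rose, 7 fell and 13 did not pass (median difference 0.05). The share that passed was 45.8%, against 25.4% of all genes. This list was drawn up with earlier results of these data known, so no excess can be read from its share. RECK, a membrane-anchored inhibitor of several MMPs and of ADAM10, was read at 7.60, 7.34 and 7.46 in S22A-progerin, against 8.15, 8.27 and 8.22 in wt-progerin. Its fall of 1.67-fold (difference -0.74, limma adjusted p = 6.79e-04) was the largest of this list. LRP1, the receptor that takes up A2M bound to proteases, was read at 9.76, 9.66 and 9.91 in S22A-progerin, against 10.38, 10.42 and 10.38 in wt-progerin, a 1.53-fold fall (limma adjusted p = 0.0011). The groups of both genes were separate. CD109, a membrane protein of the A2M family, fell (-0.27), and the A2M relatives PZP (0.17) and A2ML1 (0.17) did not pass. Among the proprotein convertases that activate membrane MMPs and ADAMs, FURIN rose (0.28) while PCSK5 (-0.41) and PCSK7 (-0.32) fell. RHBDF2, which carries ADAM17 to the cell surface, rose (0.32), as did TSPAN5 (0.22), a tetraspanin partner of ADAM10. TSPAN14 (-0.27), another such partner, and the tetraspanin CD9 (-0.46) fell. CST3, the cysteine protease inhibitor cystatin C, rose (0.27).

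Of 20 listed zinc metalloproteases outside these families 12 were measured, with 2 rises, 2 falls and 8 that did not pass (median difference -0.06), so 33.3% passed, against 25.4% of all genes. BMP1, which trims procollagens, fell (-0.48), as did its relative TLL1 (-0.50), whereas TLL2 of the same small family rose (0.54). PAPPA2, which cleaves IGF-binding proteins, rose (0.40). Of 41 listed membrane proteins known to be shed by ADAMs 30 were measured, and 12 rose, 5 fell and 13 did not pass (median difference 0.14, against -0.0037 over all genes). That made 56.7% that passed, against 25.4% of all genes (10.8% higher and 14.6% lower). As with the list before it, this list was drawn up with earlier results known, so no excess can be read from its share. The largest rise was in EREG, the EGF receptor ligand epiregulin, which averaged 8.09 in S22A-progerin and 6.11 in wt-progerin (3.95-fold, limma adjusted p = 8.71e-05). NRG1 (0.56), another growth factor of the EGF family, IL6R (0.60), the interleukin-6 receptor, and CD44 (0.72), a hyaluronan receptor, rose as well. L1CAM (-0.94), a cell adhesion molecule, and the receptor AXL (-0.46) fell. HBEGF (-0.07) and TNF (0.05), classical substrates of ADAM17, did not pass. Of 24 listed matrix substrates 15 were measured, and 4 fell, 0 rose by limma and 11 did not pass (median difference -0.03). The share that passed in either direction, 26.7%, lies near the 25.4% of all genes. All of these calls were falls, whereas over all genes 14.6% passed as lower and 10.8% as higher. This list too was drawn up with earlier results known, so no excess of falls can be read. The 4 that fell were also the 4 with an unadjusted p under 0.05. The falls were in LUM (-1.14), the collagen-binding proteoglycan lumican, FBN1 (-0.77), fibrillin-1, FN1 (-0.42), fibronectin, and NID1 (-0.22), nidogen-1. Shedding, cleavage and enzyme activity were not measured, so these values are transcript levels of substrates and enzymes alone.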

How the data were processed

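Gene expression was measured on 6 Affymetrix whole-transcript arrays. The deposited table holds log2 values from RMA, and the submitters' processing notes name Affymetrix Expression Console for it, with no version or settings. RMA corrects background, quantile normalizes arrays and combines probes into probe sets. Without detection calls, low values may be absence, folds from low values are compressed, and signals of different genes are not ranked. The number of arrays limits the precision.

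Of 53617 probe sets, 16098 had 1 symbol in the platform annotation (checked through Entrez identifiers against RefSeq GRCh38.p14), 0 had several and 37519 were unnamed here, leaving 14884 genes. For 779 genes with several probe sets the one with the highest mean over the 6 arrays was used. S22A-progerin minus wt-progerin was fitted with limma 3.58.1 (R 4.3.3; lmFit, eBayes, no covariate, two-sided), adjusted by Benjamini-Hochberg over all 14884 genes and called at 0.05. All adjusted p-values are limma's. The labels call the replicates independent. On simulated arrays of 14884 genes with a difference of 0.3 the code recovered 8 of 50 genes. With 0.6 it recovered 36 of 50, and with 1 it recovered 48 of 50. Fewer genes differed there than passed in the data, so these rates may not carry over.

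The members and lists were chosen with earlier results of these data known. Genes named were those that passed, all TIMPs, A2M, the 3 with the highest mean signal in each family, and those not passing with a difference of at least 0.3. Others were named after their values were seen. Motifs were sought in RefSeq promoter windows with Python 3.11.15. Their coordinates are RefSeq's, as the array files give no build. Alternatives were other normalization, probe set, filter, variance, weight, block, left-out array and threshold settings. The replicate numbers did not pair the arrays, as the deviations of arrays with the same number correlated at -0.0195, -0.0549 and -0.00558 across genes.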

Additional observations from a re-analysis of the deposited data

How the results depend on the processing

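Of the 15 genes that passed, 12 did so under each of the alternative fits that tested them, and ADAM9, ADAM19 and ADAMTSL1 did not. MMP1 ranged from 1.97 to 2.04, TIMP2 from -0.48 to -0.41 and A2M from -1.61 to -1.56. Of the 33 that did not pass, 27 passed under no alternative and 11 changed sign without passing under either sign. MMP16, MMP27, ADAM23, ADAM30, TIMP1 and TIMP3 passed under at least 1 alternative, TIMP1 with a variance prior with trend and robust (0.12, limma adjusted p = 0.0322). Leaving out the dimmer 50% of genes removed 26 of the 48, among them MMP1, MMP8, MMP12 and ADAM28. No MMP rise of the reported fit was left. The 1 MMP gene then higher was MMP16 (0.15, limma adjusted p = 0.0238), which did not pass in the reported fit. The medians were then -0.11 for the MMPs, -0.42 for ADAMTSL and -0.04 for the TIMPs. The TIMP median was 0.0376 in the reported fit, 0.0037 with arrays centred on their medians, -0.0681 with probe sets averaged and -0.0449 with every probe set tested. Both probe set settings gave 2 TIMP falls (TIMP2 and TIMP3), and the trend and robust prior gave 1 TIMP rise. With the replicate block as a fixed effect 6 of the 48 were higher and 7 lower, and 1 ADAM gene was lower, as ADAM9 then did not pass (adjusted p = 0.0807), nor did ADAM19 (0.0936). It changed no other call among the 48, and a block on a shared number leaves fewer degrees of freedom. At an adjusted p under 0.01, 852 genes were higher and 1226 lower, with 0 ADAMTSL genes higher and 1 ADAM gene lower. A required fold of 1.5 or more left 411 genes higher and 452 lower, and 4 of the 48 were higher and 4 lower. That left 1 ADAM, 0 ADAMTSL and 3 MMP genes higher, and 1 ADAM, 1 ADAMTSL, 1 MMP and 0 TIMP genes lower. With each array left out in turn, 5 to 7 of the 48 were higher and 7 to 9 lower, ADAM genes lower numbered 1 to 2, ADAMTSL genes higher 0 to 1, and the TIMP median ran from 0.007 to 0.065. The call of ADAMTSL1 was lost without wt-progerin replicate 3. Alternatives for numbered ADAMTS genes could not be run because none was measured. Causes of these shifts were not tested beyond what each setting changes by construction.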

Other observations

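The pseudogenes and the antisense gene left out by the symbol rule did not pass. ADAM20P1, a transcribed pseudogene of ADAM20, was read at 6.70, 6.53 and 8.34 in S22A-progerin, against 6.44, 6.34 and 6.54 in wt-progerin. As for ADAM20 itself, S22A-progerin replicate 3 alone stood above the rest. Signals of the gene and its copy cannot be told apart where their probes are alike. ADAM21P1 (-0.01), ADAM3A (0.01), ADAM6 (-0.06), ADAMTS7P1 (-0.10), MMP23A (0.01) and ADAMTS9-AS2 (-0.12) made up the rest.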
